A study of Arabidopsis thaliana with 4 samples.

Results

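The contacts described here join the pericentromere of one Arabidopsis thaliana chromosome to the pericentromere of another. They were chosen by position alone: both 100 kb bins of a pair lie in a pericentromere, and the bins lie on different chromosomes. This gave 13834 of 541742 interchromosomal pairs of bins (2.55%), from 187 pericentromeric bins among 1168 bins with usable signal. The rule covered 202 bins, of which 15 had too little signal, and it left out a further 10 bins: the 5 centromere bins, 3 on chromosome 2 and 2 on chromosome 3.

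Endosperm and leaf were compared by Hi-C, in which crosslinked chromatin is cut and religated so that sequenced junctions count how often pairs of sites lay together. The endosperm was F1 tissue of the Col-0 ecotype with the genotype Col_wt x Col_wt, and the labels give no stage for it. The leaves were from Col-0 plants 4 weeks old, and their sample titles carry the same Col_wt x Col_wt label. Neither tissue was treated. Each tissue had 2 replicates, pooled by the authors into 1 map, so no spread between replicates can be given and every difference below is a difference between 2 maps. Intervals are 95% counting intervals and cover counting error only.

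In Arabidopsis interphase nuclei the centromere of each chromosome and the repeat-rich, gene-poor, heavily methylated DNA around it condense into dense bodies called chromocentres. Chromocentres of different chromosomes can lie apart or come together, and Hi-C records this as contact between pericentromeres. The endosperm is the nourishing tissue of the seed, formed by the second fertilization and usually triploid, and its heterochromatin is known to be less condensed and less methylated than that of leaves.

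The 5 pericentromeres ran from 12.9 to 16.9 Mb on chromosome 1, 1.7 to 6.7 Mb on chromosome 2, 11.1 to 16.0 Mb on chromosome 3, 2.6 to 5.7 Mb on chromosome 4 and 10.1 to 14.3 Mb on chromosome 5, in TAIR10. They gave 29 bins on chromosome 1, 46 each on chromosomes 2 and 3, 28 on chromosome 4 and 38 on chromosome 5. The borders follow low gene cover, so gene cover describes these regions and is no separate check of their name. Protein-coding genes covered a median of 10.3% of these bins, with a range of 0% to 41.5%, against 64.9% of bins outside the pericentromeres. All 187 bins lay below the median of the bins outside. Bins within 0.5 Mb of the centromere bin, called the core, had a median cover of 3.17%, and the other pericentromeric bins, called the flank, 14.1%. The core had 38 bins, of which chromosome 1 supplied only 1, so the core describes chromosomes 2 to 5 almost alone.

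The pairs held 267396 contacts in endosperm and 172669 in leaf. The median pair of bins had 18 contacts in endosperm and 12 in leaf, and 0 pairs in endosperm and 3 in leaf had none. Single pairs are therefore imprecise, and most values below are means over many pairs. Contact is given as the mean balanced signal of a set of pairs over that of all interchromosomal pairs in the same map, so that 1 is the average between chromosomes.

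Pericentromeres of different chromosomes met more often than average in endosperm and less often than average in leaf. Their mean contact was 1.06 in endosperm (1.055 to 1.063) and 0.918 in leaf (0.914 to 0.922). The difference was 0.21 on the log2 scale (0.20 to 0.22), or 15.4%. Contact of pericentromeres with the rest of other chromosomes, called arms here, was 0.971 in endosperm and 0.918 in leaf. The pericentromeres of leaf thus met each other about as often as they met arms, with a ratio of 1.00 (0.996 to 1.01), and the same ratio in endosperm was 1.09 (1.086 to 1.095).

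The direction between tissues rests on what a pair is measured against. When the expected contact of each pair was set from the total interchromosomal signal of its own bins, the value was 1.07 in both tissues, with a log2 difference of -0.0040 (-0.013 to 0.0048). Arm to arm pairs were at 1.01 in both tissues on that scale. The interchromosomal share of a bin's signal averaged 65.2% in endosperm and 69.1% in leaf for bins outside the pericentromeres. For pericentromeric bins it was 65.7% in endosperm and 65.4% in leaf. The part of these shares in the result was not tested. On recovered counts without balancing the value was 0.718 in endosperm and 0.614 in leaf, a log2 difference of 0.23, beside 0.864 and 0.886 for arm to arm pairs.

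A pericentromeric bin sent 17.0% of its interchromosomal signal to other pericentromeres in endosperm and 15.8% in leaf, where such bins were 15.8% of its possible partners. For core bins these shares were 17.4% in endosperm and 17.0% in leaf, and for flank bins 16.8% and 15.5%. The tissues thus differed less for core bins than for flank bins. A bin outside the pericentromeres sent 15.8% of its interchromosomal signal to them in endosperm and 14.7% in leaf, against 16.3% of its possible partners.

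All 10 chromosome pairs gave the same order. Contact was 1.03 to 1.102 in endosperm, above 1 in 10 of 10 pairs, and 0.881 to 0.966 in leaf, below 1 in 10 of 10, and the ranges did not overlap. The pairs share chromosomes and come from the same 2 maps, so they are not replicates. Chromosomes 2 and 4, whose short arms carry the nucleolar organizer regions with the 45S ribosomal RNA genes, had the highest endosperm value at 1.102, against 0.945 in leaf. Chromosomes 4 and 5 had the highest leaf value, with 1.07 in endosperm and 0.966 in leaf. Chromosomes 1 and 2 had the lowest leaf value and the largest difference, with 1.04 in endosperm and 0.881 in leaf, a log2 difference of 0.24 (0.22 to 0.27). Chromosomes 1 and 4 differed least, with 1.06 in endosperm and 0.965 in leaf, a log2 difference of 0.14 (0.11 to 0.18). Measured against expected contact from bin totals, the difference was positive in only 5 of 10 pairs.

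**Figure D1:**
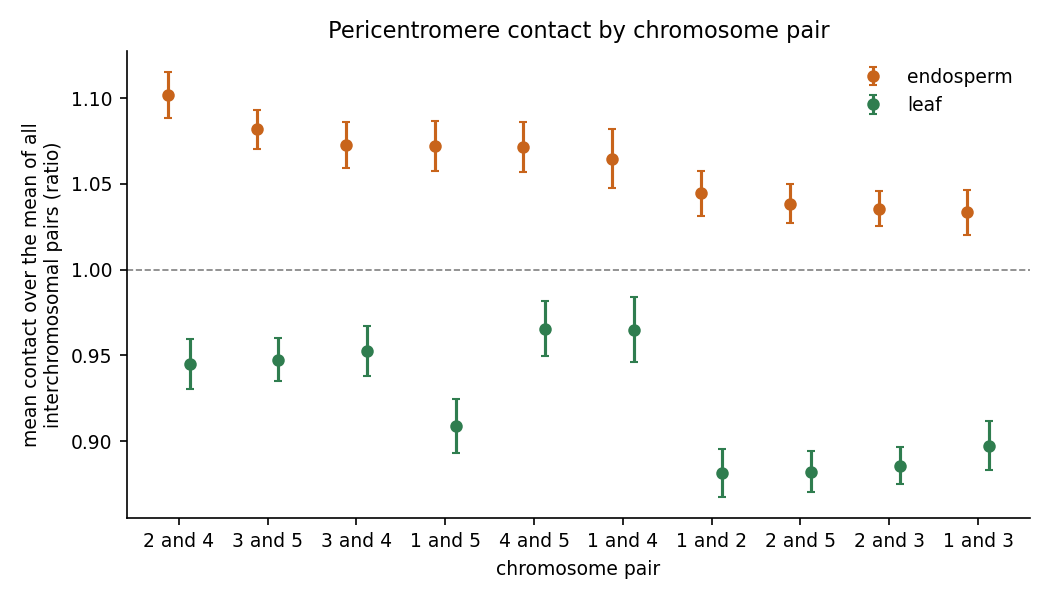
Mean contact between the pericentromeres of each pair of chromosomes, as a ratio to the mean of all interchromosomal pairs, in endosperm (orange, left point) and leaf (green, right point). Bars are 95% counting intervals. All 10 endosperm points lie above the dashed line at 1 and all 10 leaf points below it.

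By chromosome the log2 difference was 0.21 for chromosome 1, 0.23 for chromosome 2, 0.20 for chromosome 3, 0.18 for chromosome 4 and 0.21 for chromosome 5. Chromosome 4 had the smallest difference, but not in every pair. Its pair with chromosome 2 was at 0.22, within the range of 0.19 to 0.24 for pairs without chromosome 4. Pairs with chromosome 4 had a contact of 1.08 in endosperm and 0.956 in leaf, and pairs without it 1.05 in endosperm and 0.900 in leaf. The lead of chromosome 4 pairs over the others was smaller in endosperm, at 1.03 against 1.06 in leaf, a log2 difference of -0.05 (-0.07 to -0.03). Chromosome 4 also has the shortest pericentromere, and 18 of its 28 bins lay within 1 Mb of the centromere, against 10 of 29 on chromosome 1, 17 of 46 on chromosome 2, 18 of 46 on chromosome 3 and 20 of 38 on chromosome 5. The part of this difference in makeup was not tested.

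The lead of chromosomes 2 and 4, which carry the nucleolar organizer regions, over all other pairs was seen in endosperm and not in leaf. In endosperm the next highest pair, chromosomes 3 and 5, was at 1.08, and each other pair with chromosome 2 was at 1.04. In leaf their value of 0.945 lay below those of chromosomes 1 and 4, 3 and 4, 4 and 5, and 3 and 5, and all pairs with chromosome 4 were high in leaf. The pair of chromosomes 2 and 4 exceeded the pairs among chromosomes 1, 3 and 5 by a ratio of 1.04 in endosperm (1.02 to 1.05) and 1.03 in leaf (1.01 to 1.04). The log2 difference between these ratios was 0.01 (-0.02 to 0.05). Its interval lay above 0 on the 200 kb maps (0.04) and against expected contact from bin totals (0.05). The interval also lay above 0 with medians over pairs (0.045) and without strong pairs (0.037). In 5 of 9 alternatives the interval held 0.

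The leaf map holds a strong contact between chromosome 1 at 22.5 to 23.0 Mb and chromosome 2 at 1.5 to 2.0 Mb, which reached 5.53 times the interchromosomal mean in leaf against 0.917 in endosperm in the bins outside the pericentromere. It borders the pericentromere of chromosome 2 and belongs to the arm to arm pairs of these chromosomes. Set against arm to arm contact of the same 2 chromosomes, their pericentromeric contact was 1.04 in endosperm and 0.795 in leaf, a log2 difference of 0.39 (0.36 to 0.42). The other 9 pairs measured this way had log2 differences between 0.17 and 0.27. Near the junction the pericentromeres did not stand out: the chromosome 2 bins closest to it met the chromosome 1 pericentromere at 0.986 in endosperm and 0.861 in leaf, and the other chromosome 2 bins at 1.05 and 0.884.

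Both tissues had more contact between cores than between flanks. Core to core contact was 1.31 in endosperm (1.29 to 1.33) and 1.21 in leaf (1.19 to 1.24), over 547 pairs. Core to flank contact was 1.11 in endosperm and 0.971 in leaf, over 4541 pairs. Flank to flank contact was 1.02 in endosperm and 0.872 in leaf, over 8746 pairs. The tissue difference was thus smallest between cores, at a log2 of 0.11 (0.07 to 0.15), and larger between core and flank at 0.19 and between flanks at 0.22 (0.21 to 0.24).

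The direction between cores depended on the measure. Core to core contact against expected contact from bin totals was 1.19 in endosperm and 1.32 in leaf, a log2 difference of -0.15 (-0.19 to -0.11). With the 10 left-out bins included, core to core contact was 1.61 in endosperm and 1.70 in leaf, a log2 difference of -0.08 (-0.10 to -0.06). Flank to flank contact was higher in endosperm on each of these measures, with a log2 difference of 0.03 against expected contact and 0.23 with the left-out bins.

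The step between core and flank was shallower in endosperm on the balanced maps, by an amount that varied with chromosome 4, the weighting and the measure. Core to core over flank to flank contact was 1.28 in endosperm (1.26 to 1.31) and 1.39 in leaf (1.36 to 1.42), a log2 difference of -0.11 (-0.15 to -0.07). The step was above 1 in 10 of 10 chromosome pairs in both tissues, and ranged from 1.18 to 1.48 in endosperm and from 1.14 to 1.58 in leaf. It was lower in endosperm in 6 of 10 pairs, and the interval lay below 0 in only 2: chromosomes 2 and 4, with 1.34 in endosperm and 1.58 in leaf, and chromosomes 3 and 4, with 1.18 in endosperm and 1.38 in leaf. The log2 difference was -0.032 (-0.073 to 0.0084) on counts without balancing and -0.037 (-0.10 to 0.029) with each chromosome pair weighted equally. Without chromosome 4 it was -0.061 (-0.12 to -0.0026). On other measures the log2 difference was larger. It was -0.18 (-0.22 to -0.14) against expected contact from bin totals and -0.31 (-0.33 to -0.29) with the left-out bins included.

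Contact fell with distance from the centromere in both tissues, and in endosperm it reached the interchromosomal average only near the outer edge. Bins were grouped by 0.5 Mb steps and averaged over all pericentromeric partners. In endosperm contact was 1.13 at 0 to 0.5 Mb, 1.07 at 0.5 to 1 Mb, 1.04 at 1 to 1.5 Mb, 1.02 at 1.5 to 2 Mb and 0.997 at 2 to 2.5 Mb. In leaf it was 0.997, 0.936, 0.900, 0.859 and 0.862 at the same steps. The leaf value was thus at the interchromosomal average in the core alone. The log2 difference ran from 0.18 in the core to 0.24 at 1.5 to 2 Mb and 0.21 at 2 to 2.5 Mb. The interchromosomal share of signal was 69.1% for core and 64.8% for flank bins in endosperm, and 67.8% and 64.8% in leaf. Core to core over flank to flank contact was a log2 of 0.36 in endosperm and 0.48 in leaf. Against expected contact from bin totals it was 0.17 and 0.35. The part of the shares in the fall with distance was not tested.

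**Figure D2:**
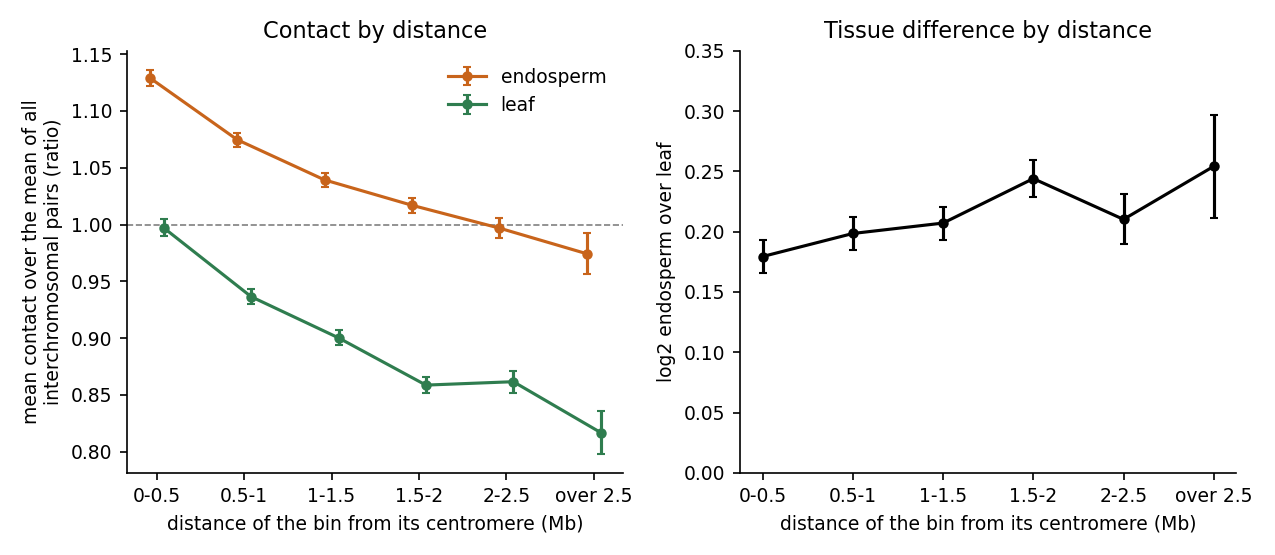
Left, mean contact of bins with pericentromeres of other chromosomes by distance from their own centromere, in endosperm (orange) and leaf (green), as a ratio to the interchromosomal mean. Right, the log2 ratio of endosperm over leaf, which lies between 0.18 and 0.25. Bars are 95% counting intervals, and the last step holds 5 bins of chromosome 2.

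The tissue difference did not end at the border of the pericentromeres. Bins in the outermost 0.5 Mb inside the border met the pericentromeres of other chromosomes at 1.01 in endosperm and 0.864 in leaf, a log2 difference of 0.23 (0.22 to 0.24). Bins in the first 0.5 Mb outside gave 0.998 in endosperm and 0.879 in leaf, a log2 difference of 0.18 (0.17 to 0.20). Between 0.5 and 1 Mb outside it was 0.16 (0.14 to 0.17), while gene cover had a median of 27.4% inside, 37.1% in the first step outside and 47.9% in the next.

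When both bins were sorted by distance, the highest contact in both tissues lay where both bins were in the core. From there contact in endosperm was 1.17 for a core bin with a bin at 0.5 to 1 Mb, against 1.05 in leaf, and 1.06 for a core bin with a bin at 2 to 2.5 Mb, against 0.884 in leaf. For 2 bins at 0.5 to 1 Mb it was 1.11 in endosperm and 0.980 in leaf, and for 2 bins at 1.5 to 2 Mb 0.989 in endosperm and 0.817 in leaf. The interval of the tissue difference lay above 0 at every combination of steps except that of 2 to 2.5 Mb with over 2.5 Mb, which had 70 pairs and a log2 difference of 0.12 (-0.01 to 0.26).

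**Figure D3:**
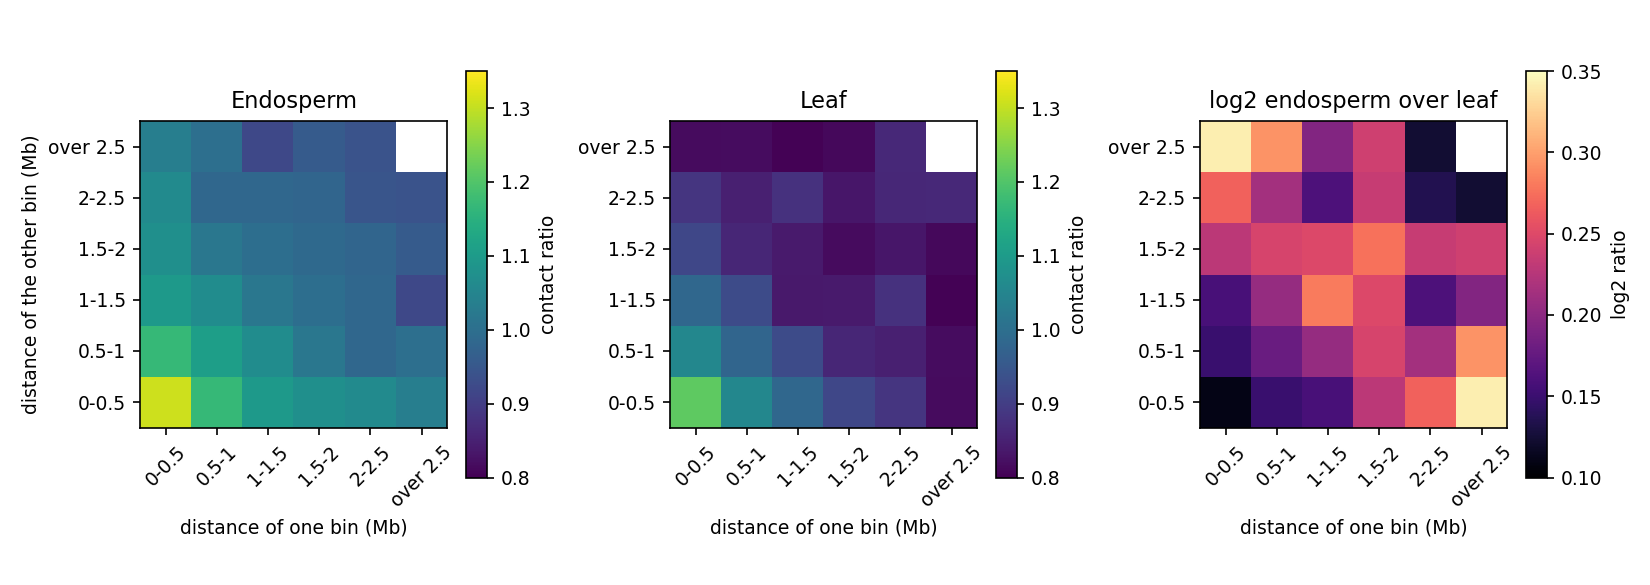
Mean contact by the distance of both bins from their centromeres, in endosperm (left), in leaf (middle) and as the log2 ratio of endosperm over leaf (right). Contact is a ratio to the interchromosomal mean, the colour scale is the same for both tissues, and the white corner holds no pairs. Both tissues peak at lower left, where both bins are in the core, at 1.31 in endosperm and 1.21 in leaf.

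Outside the core, bins at like distance from their centromeres met slightly more than bins at unlike distance, by close ratios in the 2 tissues. With like distance set at a difference of up to 0.5 Mb and unlike at 1.5 Mb or more, the ratio was 1.05 in endosperm (1.03 to 1.07) and 1.05 in leaf (1.03 to 1.08), and the log2 difference was 0.0026 (-0.04 to 0.05). Every unlike pair held a bin over 2 Mb out, where contact was lower than at 0.5 to 1 Mb. The part of that fall in the ratio was not tested. Pairs of 2 bins at 2 to 2.5 Mb had 0.945 in endosperm and 0.860 in leaf. Bins at 0.5 to 1 Mb met bins at 2 to 2.5 Mb at 0.984 in endosperm and 0.848 in leaf. Bins on the same side of their centromeres met at nearly the level of bins on opposite sides, with a ratio of 1.00 in endosperm (0.993 to 1.008) and 1.00 in leaf (0.995 to 1.01). Northern bins met each other slightly more than southern ones did, by 1.02 in both tissues.

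Across the bins, 184 of 187 had a higher contact with the pericentromeres of other chromosomes in endosperm than in leaf, and the interval lay above 0 for 179 and below 0 for 0. The lowest, median and highest bins were at 0.916, 1.05 and 1.42 in endosperm, against 0.741, 0.899 and 1.43 in leaf. The tissues overlap in range, but 141 bins lay above the interchromosomal mean in endosperm and 30 in leaf. Bins outside the pericentromeres, measured the same way, had medians below that mean in both tissues, at 0.968 in endosperm and 0.907 in leaf. How many of them lay above that mean, or had an interval above 0, was not counted. The counts of 179, 141 and 30 therefore stand without a background. At a 1.2-fold threshold 39 of 187 bins (20.9%) were higher in endosperm and 0 were lower, against 4.02% of all 1168 bins higher and 0.514% lower. Outside the pericentromeres 8 of 971 bins were higher at this threshold and 6 lower, and 866 were higher at all.

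Of the bins past the threshold, 4 were among the 38 core bins and 35 among the 149 flank bins. By chromosome they were 9 of 29 on chromosome 1, 14 of 46 on chromosome 2, 7 of 46 on chromosome 3, 2 of 28 on chromosome 4 and 7 of 38 on chromosome 5. All bins of chromosomes 1, 2 and 5 were higher in endosperm at any fold. No bin passed 1.2-fold when contact was set against expected contact from bin totals, and 72 did on counts without balancing. The share of all bins that passed was not counted on these scales.

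The bins kept their rank between tissues. Across the 187 bins contact in endosperm and in leaf correlated with a Pearson's r of 0.90 and a Spearman's rho of 0.87, as a description of bins that share partners and balancing. Contact fell with distance from the centromere with an r of -0.62 in endosperm and -0.57 in leaf, and with gene cover with an r of -0.53 in endosperm and -0.45 in leaf. The tissue difference itself was only weakly related to distance (r 0.29) and gene cover (r 0.15), and not to the ratio of coverage in the 2 tissues (r -0.03).

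**Figure D4:**
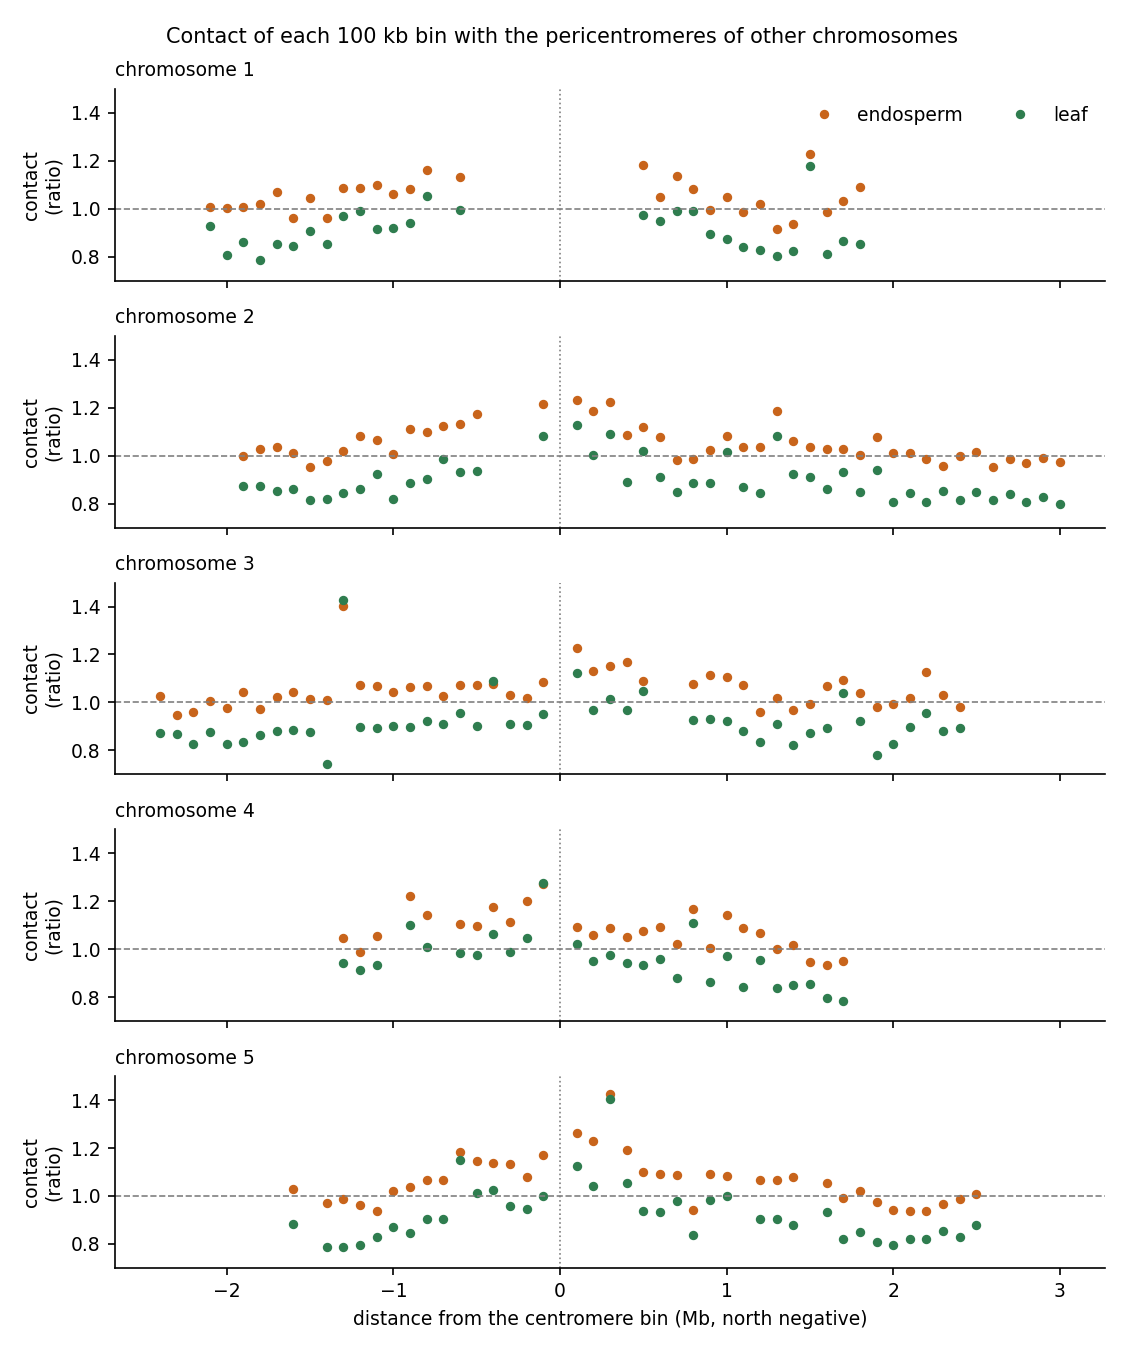
Contact of each 100 kb bin with the pericentromeres of other chromosomes, as a ratio to the interchromosomal mean, against the bin's distance from its centromere bin, for chromosomes 1 to 5. Orange points are endosperm and green points leaf. The endosperm point is the higher in 184 of 187 bins, and the highest bins, at 1.42 in endosperm on chromosome 5 and 1.43 in leaf on chromosome 3, are nearly equal in both tissues.

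The bin with the largest difference lay on chromosome 3 at 12.1 to 12.2 Mb, 1.4 Mb north of the centromere. Its contact was 1.01 in endosperm and 0.741 in leaf, the lowest leaf value of any pericentromeric bin, with a log2 difference of 0.44 (0.34 to 0.55). The only named gene starting in it is bZIP42, which encodes a basic leucine zipper transcription factor. The bin next to it, at 12.2 to 12.3 Mb, had the highest leaf value, with 1.40 in endosperm and 1.43 in leaf, and the lowest log2 difference of all bins at -0.03 (-0.10 to 0.05).

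Next came a bin of chromosome 1 at 13.2 to 13.3 Mb, with 1.02 in endosperm and 0.788 in leaf and a log2 difference of 0.37 (0.28 to 0.46). Its named genes include CDPK2, for a calcium-dependent protein kinase, RPL21C, for a ribosomal protein of the large subunit, and ANNAT1, for an annexin. A bin of chromosome 4 at 5.0 to 5.1 Mb, with the microRNA locus MIR401, had 1.09 in endosperm and 0.843 in leaf. A bin of chromosome 1 at 16.8 to 16.9 Mb had 1.09 in endosperm and 0.854 in leaf. Its genes include hemb2, named for an enzyme of tetrapyrrole synthesis, ILL6, for a hydrolase of auxin conjugates, and CH1, for the oxygenase that makes chlorophyll b. A bin of chromosome 2 at 2.4 to 2.5 Mb had 1.08 in endosperm and 0.859 in leaf, and holds GRF6, a growth-regulating factor, ELF8, a subunit of the Paf1 complex that acts in flowering, and ELF4-L3, a relative of the clock gene ELF4. These genes say where the bins lie, since the values belong to whole bins and no expression was measured.

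The other bins with the smallest difference were near equal in both tissues. They lay on chromosome 3 at 13.1 to 13.2 Mb (1.08 in endosperm and 1.09 in leaf), chromosome 4 at 3.8 to 3.9 Mb (1.27 and 1.28), chromosome 5 at 12.0 to 12.1 Mb (1.42 and 1.40) and chromosome 5 at 11.1 to 11.2 Mb (1.18 and 1.15). No named gene starts in any of them, and each belongs to at least 1 of the strong pairs described below.

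At the scale of 500 kb blocks, 618 of 682 block pairs between pericentromeres were higher in endosperm, against 11484 of all 22282 interchromosomal block pairs. At 1.2-fold 252 (36.95%) were higher and 8 lower, against 5.09% higher and 3.6% lower among all 22282 interchromosomal block pairs. A contact above the interchromosomal mean was found in 441 pericentromeric block pairs (64.7%) in endosperm and 137 (20.1%) in leaf. Among all interchromosomal block pairs these shares were 45.8% in endosperm and 44.0% in leaf. Against expected contact from bin totals, 53 pericentromeric block pairs were past 1.2-fold higher in endosperm and 49 lower, so higher ones hardly outnumbered lower ones. The share over all block pairs was not counted on that scale.

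The highest block pair in endosperm joined the cores of chromosome 2 (3.5 to 4.0 Mb) and chromosome 4 (3.5 to 4.0 Mb), at 1.95 in endosperm and 1.74 in leaf, a log2 difference of 0.17 (-0.02 to 0.36). It holds 1 of the strong pairs described below, and without that pair it was at 1.69 in endosperm and 1.21 in leaf, a log2 difference of 0.49 (0.26 to 0.71). That pair was itself lower in endosperm than in leaf, so leaving it out raises the difference. The cores of chromosome 3 (13.5 to 14.0 Mb) and chromosome 5 (11.5 to 12.0 Mb) met at 1.67 in endosperm and 1.37 in leaf. The largest differences toward endosperm lay in flanks, in block pairs with 15, 12 and 10 pairs of bins, where 10 was the least allowed. They are the extremes of 682 block pairs and had 119, 112 and 76 contacts in leaf, against a median of 246. Blocks at the border extend past the pericentromere, and only the bins inside it were counted. Chromosome 2 at 2.5 to 3.0 Mb met chromosome 5 at 10.0 to 10.5 Mb at 1.103 in endosperm and 0.628 in leaf, a log2 difference of 0.81 (0.49 to 1.13). Chromosome 1 at 16.5 to 17.0 Mb met the same block of chromosome 5 at 1.25 in endosperm and 0.733 in leaf. The third, chromosome 1 at 13.0 to 13.5 Mb with chromosome 2 at 6.5 to 7.0 Mb, had 1.03 in endosperm and 0.615 in leaf, and rests on 162 contacts in endosperm and 76 in leaf.

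Several block pairs that were higher in leaf contain a single strong pair of bins. Chromosome 4 at 3.0 to 3.5 Mb and chromosome 5 at 11 to 11.5 Mb met at 1.46 in endosperm and 2.00 in leaf, a log2 difference of -0.45 (-0.60 to -0.30), and at 1.08 and 1.31 without that pair. Chromosome 1 at 16.5 to 17.0 Mb and chromosome 4 at 4.5 to 5.0 Mb, the highest block pair of leaf, met at 1.65 in endosperm and 2.10 in leaf, and at 0.950 in endosperm and 0.777 in leaf without it. Chromosome 2 at 4.5 to 5.0 Mb and chromosome 4 at 3.5 to 4.0 Mb met at 1.34 in endosperm and 1.77 in leaf, and at 1.06 and 1.08 without it. Chromosome 3 at 12.0 to 12.5 Mb and chromosome 5 at 12.0 to 12.5 Mb met at 1.70 in endosperm and 2.00 in leaf, and at 1.06 and 1.11 without it. A block pair with no strong pair, chromosome 3 at 14.0 to 14.5 Mb with chromosome 5 at 12.5 to 13.0 Mb, was also higher in leaf, with 0.916 in endosperm and 1.16 in leaf.

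Single pairs of bins thus carried much of the signal of some blocks. Pairs above 5 times the interchromosomal mean in either tissue, a threshold chosen after the values were seen, numbered 27 of 13834 (0.195%) between pericentromeres. The same threshold was passed by 0.00966% of arm to arm pairs, 14 of whose 36 pairs joined chromosomes 1 and 2, and by 0.0082% of pericentromere to arm pairs. Of the 27 pairs, 18 were above it in endosperm, 26 in leaf and 17 in both. Their neighbours, the bin pairs touching them, had a median contact of 1.18 in endosperm and 0.979 in leaf. Pairs with left-out bins were counted among the neighbours. Chromosome 2 at 3.5 to 3.6 Mb with chromosome 4 at 3.8 to 3.9 Mb was at 5.94 in endosperm and 9.77 in leaf. Its neighbours averaged 4.84 in endosperm and 7.19 in leaf. The highest of these neighbours reached 28.6 in endosperm and 49.3 in leaf. Those values exceed all pericentromeric pairs described here, so they belong to left-out bins. The neighbours of the other 26 pairs averaged at most 1.48 in endosperm and 1.32 in leaf.

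Since 9 pairs passed the threshold in leaf alone and 1 in endosperm alone, the direction of these 10 follows from how they were chosen. Of the 17 pairs above it in both tissues, 16 were lower in endosperm than in leaf, 14 with an interval below 0, and their median log2 difference was -0.60. This is a description of pairs chosen by their values in the same maps. The highest pair in leaf joined chromosome 1 at 16.5 to 16.6 Mb and chromosome 4 at 4.7 to 4.8 Mb, at 15.0 in endosperm and 27.2 in leaf, from 405 and 555 contacts. Its neighbours were at 0.825 in endosperm and 0.863 in leaf. The highest in endosperm joined chromosome 3 at 12.2 to 12.3 Mb and chromosome 5 at 12.0 to 12.1 Mb, at 17.3 in endosperm and 23.3 in leaf. Others joined chromosome 1 at 12.9 to 13.0 Mb with chromosome 2 at 4.9 to 5.0 Mb (10.3 in endosperm and 16.3 in leaf), chromosome 1 at 13.8 to 13.9 Mb with chromosome 4 at 3.5 to 3.6 Mb (9.72 and 16.2), and chromosome 4 at 3.0 to 3.1 Mb with chromosome 5 at 11.1 to 11.2 Mb (8.70 and 15.0).

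**Figure D5:**
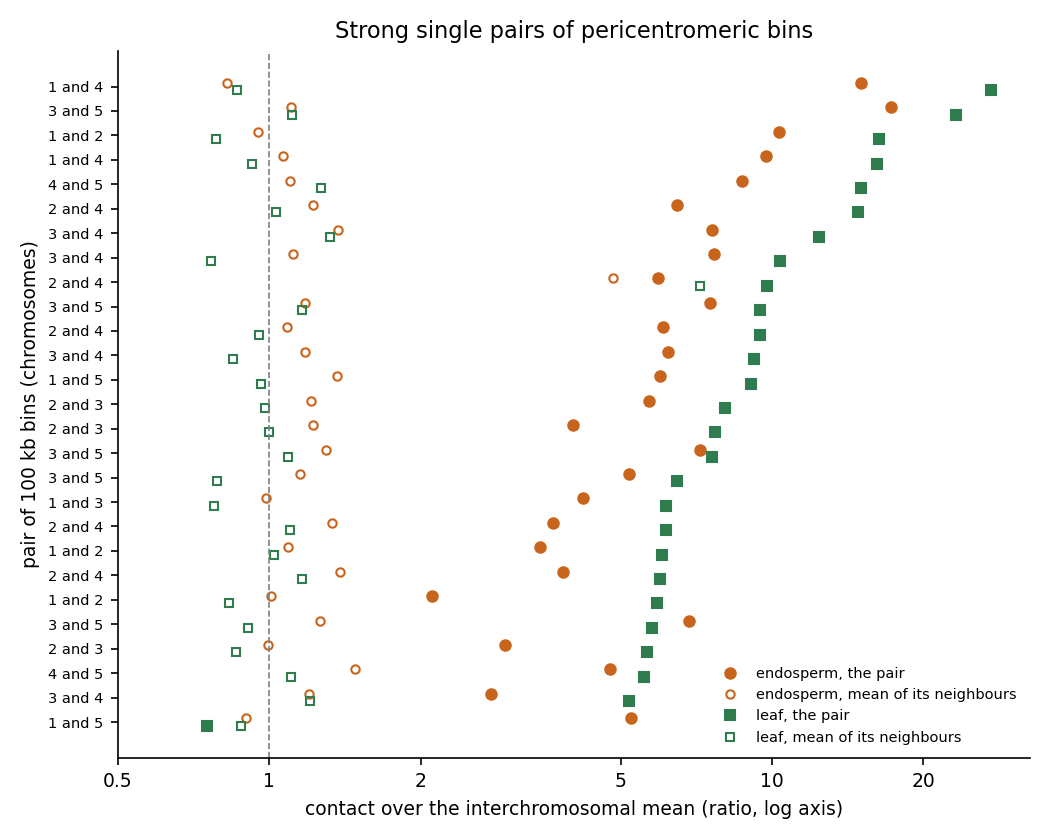
The 27 pairs of bins above 5 times the interchromosomal mean in either tissue, ordered by leaf contact, on a log axis. Filled orange circles are endosperm and filled green squares leaf. Open symbols are the mean of the neighbouring pairs, with pairs of left-out bins included. The leaf symbol lies right of the endosperm symbol in 16 of the 17 pairs that pass in both tissues, and in the 9 that pass in leaf alone, where the choice fixed it. The pair at the bottom passes in endosperm alone, at 5.24 in endosperm and 0.750 in leaf.

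The strong pairs came from 33 bins, and 4 bins supplied many of them. The bins of chromosome 3 at 12.2 to 12.3 Mb, chromosome 4 at 3.8 to 3.9 Mb and chromosome 5 at 12.0 to 12.1 Mb each took part in 5 pairs, and that of chromosome 1 at 16.5 to 16.6 Mb in 4. Chromosome 4 took part in 13 of the 27 pairs, against 4452 of all 13834 pericentromeric pairs. Core to core pairs were 3 of 27 (11.1%), against 3.95% of all pericentromeric pairs. Core to flank pairs were 17 (63.0%), against 32.8%, and flank to flank pairs 7 (25.9%), against 63.2%. Near-identical sequence in both bins, to which reads can map wrongly, was not tested, since no genome sequence was used here.

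The pair that passed in endosperm alone had the widest gap between tissues. Chromosome 1 at 16.8 to 16.9 Mb and chromosome 5 at 12.1 to 12.2 Mb met at 5.24 in endosperm and 0.750 in leaf, from 86 contacts in endosperm and 9 in leaf, a log2 difference of 2.80 (1.81 to 3.80). Its neighbours were at 0.897 in endosperm and 0.880 in leaf, so the signal lay in this pair of bins.

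Without the strong pairs the tissue difference was slightly larger, a direction that follows from how they were chosen. Of the 27 pairs, 26 passed in leaf and 25 were lower in endosperm, so leaving them out lowers leaf more. Pericentromeric contact without them was 1.05 in endosperm and 0.901 in leaf, a log2 difference of 0.22 (0.21 to 0.23). Core to core contact was 1.28 in endosperm and 1.17 in leaf. All 187 bins were then higher in endosperm, 42 of them past 1.2-fold, with no share over all bins counted for this setting. The bin of chromosome 3 at 12.2 to 12.3 Mb had 1.17 in endosperm and 1.08 in leaf, that of chromosome 4 at 3.8 to 3.9 Mb 1.14 and 1.00, and that of chromosome 5 at 12.0 to 12.1 Mb 1.19 and 1.08. The log2 difference between tissues in core over flank contact was -0.09 (-0.14 to -0.05) without the strong pairs.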

How the data were processed

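The submitters' processing notes name HiC-Pro 2.9.0, Bowtie2 and TAIR10. The deposited matrices hold balanced contact signal in bins of 100 kb and 200 kb, with 2 replicates pooled per tissue, per the file names. The 100 kb maps were used, and the 200 kb maps were an alternative. Balancing gives bins near-equal totals (39632 to 39637 in endosperm and 29020.5 to 29022.8 in leaf), so a class of bins can differ only in where its signal goes. The sources used here name neither the read filters nor the cutting enzyme.

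Each signal value is a whole contact count times a factor for each bin, and counts were recovered on this basis for 100% of pairs within a tolerance of 0.01. The maps held 25033672 contacts in endosperm and 18557893 in leaf, of which 14617359 and 11034545 lay between chromosomes. Sums of these counts gave the 200 kb counts within tolerance for 96.2% of pairs in endosperm and 95.9% in leaf. Both maps lacked signal in 23 of 1193 bins, and bins lacking values for at least 50% of partners in either tissue were left out.

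With 1 map per tissue no test across samples was made, and no p-value is given. Intervals (95%) take the recovered counts as Poisson with the balancing factors kept. Pericentromeres follow gene cover and were given with the question asked, and members, lists and thresholds were chosen with earlier results of these data known. Blocks are 500 kb with at least 10 pairs of bins. The named bins are the 5 most raised in endosperm and the 5 least raised or most lowered, and the named block pairs the 3 highest in each tissue and the 3 with the largest difference each way. Gene names and cover came from RefSeq genes on assembly TAIR10.1, used only for names and the bin a gene falls in. Leaving out strong pairs, leaving out bins with under 0.5 or over 2 times the median count, and equal weights were chosen after seeing the data. Python 3.11.15 with numpy 2.4.6, pandas 2.3.3 and matplotlib 3.10.9 was used, and the measures were tested on simulated data.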

Additional observations from a re-analysis of the deposited data

Results flagged for a closer look

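Pericentromeric contact lay on opposite sides of the interchromosomal mean in the 2 tissues: above it in 10 of 10 chromosome pairs of endosperm and below it in 10 of 10 of leaf, with a log2 difference of 0.21 over all pairs. The difference was not tested across replicates, since each tissue had 1 pooled map. Against expected contact from bin totals, both tissues were at 1.07.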

How the results depend on the processing

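No paired analysis was possible because the 2 replicates of each tissue were pooled into 1 map, and for the same reason no replicate could be left out. Each result that answers a comparison was graded under its alternatives: 180 grades were the same, 10 moved, 5 reversed, 5 stronger and 2 weaker. The same grade meant an interval clear of 0 on the same side, or one that held 0 both times with either sign. For counts it meant a change of at most 1.5-fold. Against expected contact from bin totals, the log2 difference was -0.0040 for all pericentromeric pairs, -0.15 for core to core, -0.041 for core to flank and 0.049 for the lead of chromosomes 2 and 4, with 5 chromosome pairs, 0 bins and 53 block pairs higher at their thresholds (49 block pairs lower). The chromosome pairs that turned there were 1 and 3 (-0.014), 1 and 4 (-0.079), 3 and 4 (-0.061), 3 and 5 (-0.045) and 4 and 5 (-0.088), and the bins were those of chromosome 5 at 12.0 Mb (-0.19) and 11.1 Mb (-0.14). This scale divides by the totals in which the tissues differ between pericentromeres and arms. On counts without balancing, the core over flank difference was -0.032 with an interval holding 0, the same-side lead in leaf was 0.015, 72 bins passed and the bin of chromosome 5 at 11.1 Mb was at -0.13. The lead of chromosomes 2 and 4 was 0.043 on the 200 kb maps, 0.045 with medians over pairs and 0.037 without strong pairs. With left-out bins included core to core was -0.084, with medians the same-side lead in endosperm was -0.019, and with equal weights the core over flank difference was -0.037, and leaving out chromosome 4 it was -0.061. Within 1.3 Mb of the centromere, which holds fewer bins, 20 bins and 68 block pairs passed, and like against unlike distance could not be computed. At 1.1-fold 165 bins and 461 block pairs passed, and at 1.5-fold 0 bins and 12 block pairs. The share of all bins and block pairs that passed was counted only at 1.2-fold under the main setting. Counts under the other settings therefore have no background. Without strong pairs the bins of chromosome 3 at 12.2 Mb (0.11) and chromosome 4 at 3.8 Mb (0.19) turned, a direction that follows from the choice of those pairs. Where no cause is named, the cause was not tested. A median of 18 contacts per pair in endosperm and 12 in leaf leaves single pairs imprecise.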
